A study of Mus musculus with 24 samples.

Results

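The genes described are the oocyte Nlrp family genes Nlrp2, Nlrp4a, Nlrp4b, Nlrp4e, Nlrp4f, Nlrp9a, Nlrp9b, Nlrp9c and Nlrp14. They were chosen by name, and all 9 were found among the 23235 genes of the deposited expression table, which covers 24 libraries of total RNA from mouse oocytes and zygotes. Each of 12 groups has 2 libraries: Cnot6l-/-, a group labelled Btg4-/-, and wild type, each at 4 stages. All groups are on C57BL/6 at postnatal day 21. The stages are the germinal vesicle oocyte (GV, taken 48 h after the hormone PMSG), oocytes after 8 h in culture in the first meiotic division (MI), eggs after 16 h in culture in the second (MII), and zygotes taken from mated females 24 h after the hormone hCG. MI and MII samples thus come from culture, while the labels give no culture time for GV oocytes, and zygotes come from the animal. Stage and culture cannot be told apart in comparisons of MI or MII with GV, nor of zygotes with MII. Each library pools oocytes (100 in the extraction protocol, 2 in the series description), and the labels describe neither mutant allele. Nothing says that the libraries of a group came from separate animals, so the p-values describe the spread among these samples alone, which may be technical.

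NLRP proteins share a nucleotide-binding NACHT domain and leucine-rich repeats, usually behind a pyrin domain. Some members of the family sense infection or damage in immune cells and nucleate inflammasomes, while another branch is expressed mainly in germ cells and is stored as mRNA in the growing oocyte. This maternal mRNA is removed as the oocyte matures and the embryo takes over. CNOT6L, a deadenylase of CCR4-NOT, trims poly(A) tails, and BTG4 is an adaptor that brings CCR4-NOT to maternal mRNA in the maturing egg. The libraries ask how far maternal transcripts fall when either is missing.

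The targeted gene was first checked. Cnot6l had 3.40 to 7.26 FPKM in Cnot6l-/- libraries and 7.07 to 73.9 FPKM in wild-type libraries, with no overlap within a stage. Btg4 transcript had 765 to 2515 FPKM in the libraries labelled Btg4-/- and 554 to 2490 FPKM in wild-type libraries, so it did not check that label, and directions below rest on the label. FPKM, a length-scaled measure of fragments, are given as deposited. Their sum over all genes fell with stage, to 12.7% of the GV sum in wild-type zygotes, so they are not shares of a fixed total, and read depth is unknown. In RNA of pooled cells, fewer intact cells and less RNA per cell cannot be told apart. All 8 oocyte markers were above 1 FPKM in at least 1 library, with sums of 1312 to 13488 FPKM. The 12 cumulus and granulosa cell markers summed to 1.68 to 29.6 FPKM and were highest in GV libraries, led by Cyp19a1. The 7 sperm markers summed to 0.26 to 32.7 FPKM, led by Prm2, with Tnp1 and Smcp at 0 in all libraries, and the 9 blood and immune markers to 0.29 to 3.94 FPKM, with Hbb-b1 and Hba-a1 at 0. At MI the cumulus and granulosa markers summed to 16.7 to 16.8 FPKM in Cnot6l-/- libraries, 11.9 to 15.0 FPKM in those labelled Btg4-/- and 7.32 to 9.38 FPKM in wild type. At MII they summed to 8.71 to 14.3 FPKM in Cnot6l-/-, 3.20 to 6.38 FPKM in the group labelled Btg4-/- and 5.19 to 5.59 FPKM in wild type. In zygotes they summed to 6.29 to 6.55 FPKM in Cnot6l-/-, 2.56 to 5.28 FPKM in the group labelled Btg4-/- and 1.68 to 2.17 FPKM in wild type. The sperm markers were highest in the GV libraries of each genotype. There they summed to 19.2 to 30.5 FPKM in Cnot6l-/-, 18.0 to 32.7 in those labelled Btg4-/- and 9.91 to 13.0 in wild type. At MI they summed to 5.31 to 5.79 FPKM in Cnot6l-/-, 12.4 to 13.4 in those labelled Btg4-/- and 0.89 to 2.09 in wild type. At MII the sperm markers summed to 2.52 to 5.42 FPKM in Cnot6l-/-, 1.31 to 1.77 in those labelled Btg4-/- and 0.26 to 0.81 in wild type. In zygotes the sperm markers summed to 0.58 to 1.90 FPKM in Cnot6l-/-, 1.38 to 1.78 in those labelled Btg4-/- and 1.13 to 1.68 in wild type. The part of these other-cell markers in the results was not tested.

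Of the 9 genes, 8 lie on chromosome 7 and Nlrp4f lies on chromosome 13 (chr13:65278419-65307024, minus strand, mm9). Nlrp9c (chr7:27149906-27179262, minus strand), Nlrp4a (chr7:27220132-27260477, plus strand) and Nlrp9a (chr7:27320084-27359165, plus strand) are next to one another among the members. Nlrp2 lies at chr7:5250149-5302637 on the minus strand and Nlrp14 at chr7:114310504-114341617 on the plus strand. Nlrp4b (chr7:11273142-11315507), Nlrp9b (chr7:20593372-20648287) and Nlrp4e (chr7:24086211-24147296) are on the plus strand. The coding sequences of Nlrp9a and Nlrp9c were identical at 87.7% of aligned bases, those of Nlrp4a and Nlrp4e at 85.9%, and those of Nlrp2 and Nlrp14 at 60.6%. Of all 50-base windows of the annotated transcript, 10.40% in Nlrp4e, 6.56% in Nlrp9a, 6.22% in Nlrp9b and 4.99% in Nlrp9c occur unchanged in a transcript of another gene. The share was 1.76% in Nlrp4a, 0.09% in Nlrp4f and 0.00% in Nlrp2, Nlrp4b and Nlrp14. The sources used here do not say how such reads were split, so Nlrp4e and the 3 Nlrp9 genes are the less certain values of the list.

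The promoter stretches of 5 members are shown because the paralogs Nlrp9a and Nlrp9c, on either side of Nlrp4a, carry the same row of CCAAT boxes. Nlrp2 is included as the transcript the results turn on. They are from RefSeq (GRCm38.p6), 5′ to 3′, with CCAAT in capitals. RefSeq promoters of 300 bases (250 before the start and 50 after it) were found for 8 of the 9 members, and Nlrp14 is named only. Where RefSeq lists several starts, the one with the most CCAAT is shown, and the other start of Nlrp4a held none. Nlrp4e held 1 CCAAT but its stretch is not shown.
Nlrp9a (chr7:26534942-26535072, plus strand): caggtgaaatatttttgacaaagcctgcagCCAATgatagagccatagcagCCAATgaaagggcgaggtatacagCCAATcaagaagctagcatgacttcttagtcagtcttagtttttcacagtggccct
Nlrp9c (chr7:26403676-26403825, minus strand): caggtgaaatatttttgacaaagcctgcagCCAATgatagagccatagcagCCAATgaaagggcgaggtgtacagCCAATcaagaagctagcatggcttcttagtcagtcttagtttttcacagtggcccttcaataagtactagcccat
Nlrp4a (chr7:26435534-26435638, plus strand): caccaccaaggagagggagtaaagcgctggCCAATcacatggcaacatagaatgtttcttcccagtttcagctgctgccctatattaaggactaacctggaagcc
Nlrp4b (chr7:10687684-10687813, plus strand): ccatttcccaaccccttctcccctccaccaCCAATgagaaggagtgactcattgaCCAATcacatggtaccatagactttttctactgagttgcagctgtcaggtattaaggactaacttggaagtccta
Nlrp2 (chr7:5351025-5351129, minus strand): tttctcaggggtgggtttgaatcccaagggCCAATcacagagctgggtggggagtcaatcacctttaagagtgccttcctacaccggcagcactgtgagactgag
Nlrp9a and Nlrp9c each held 3 CCAAT boxes. Over the whole window their promoters were identical at 70.3% of alignment columns, against 70.8% for Nlrp4a and Nlrp4b and 45.6% for Nlrp9a and Nlrp9b. Nlrp9b held no CCAAT on either strand. CCAAT, read on both strands, was in 6 of the 8 member promoters and in 41.1% of the 27025 genes of the RefSeq table, and 3.9% of those genes held 3 or more. The E-box letters CANNTG, the class of site bound by the oocyte factor FIGLA, were in 7 of 8 member promoters and in 75.0% of genes. TAATTG, the core bound by the oocyte homeobox factor NOBOX, was in 2 of 8 (Nlrp9a and Nlrp9b) and in 9.2% of genes. The motifs were chosen with these promoters in view, can overlap one another (CCAAT read on the other strand shares letters with TAATTG), and are a description of letters, not of binding.

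The 3′ ends are shown because the tail-shortening machinery acts there. Each line gives up to 30 bases of the annotated 3′ UTR (gencode vM1, mm9) that end with the last poly(A) signal, AATAAA or ATTAAA, or, for Nlrp4a, with TTTTAT, the core of a cytoplasmic polyadenylation element. These motifs are in capitals, with T for U.
Nlrp9a (chr7:27359119-27359148, plus strand): aatgtttatactacaagcacattcAATAAA
Nlrp9b (chr7:20648241-20648270, plus strand): aatgtttatattacaagcacatttAATAAA
Nlrp9c (chr7:27149729-27149758, minus strand): aatgtttatattacaagcacATTAAATAAA
Nlrp2 (chr7:5250166-5250195, minus strand): attcgtatcactggtatattggggAATAAA
Nlrp4b (chr7:11315465-11315494, plus strand): actattgctgtttttctgttttgtATTAAA
Nlrp4f (chr13:65278442-65278471, minus strand): aattgctgctgttttgtgTTTTATATTAAA
Nlrp4a (chr7:27261091-27261120, plus strand): ttccatgcccctcttttcatccaaTTTTAT
Within the last 100 bases of the 3′ UTR, AATAAA was in 4 of 8 members (Nlrp2, Nlrp9a, Nlrp9b and Nlrp9c) and in 64.5% of 17613 genes, and ATTAAA was in 4 of 8 members and in 20.5% of genes. TTTTAT was in Nlrp4a and Nlrp4f, 2 of 8 members, and in 13.7% of genes. In Nlrp4f it directly precedes ATTAAA, and in Nlrp9c ATTAAA and AATAAA overlap. This annotation ends some transcripts outside the spans of the deposited table, as for Nlrp4a and Nlrp9c. Nlrp4e has no 3′ UTR of this length in the annotation, and the end of Nlrp14 held none of the motifs searched.

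Nlrp14, needed in the female germ line for embryos to develop, was the most abundant member in GV oocytes of all genotypes. It had 709.6 and 545 FPKM in Cnot6l-/- GV oocytes, 716 and 703 FPKM in the group labelled Btg4-/-, and 981 and 669 FPKM in wild type. Nlrp14 made up 44.0 to 51.9% of the summed FPKM of the 9 members at GV, and its mean had rank 74 among all genes in wild-type GV oocytes. Nlrp4f, whose protein associates with the subcortical maternal complex, followed with 192 and 134 FPKM in Cnot6l-/-, 293 and 265 FPKM in the group labelled Btg4-/- and 395 and 252 FPKM in wild type. In wild-type GV oocytes Nlrp14, Nlrp4f and the other members did not overlap. Nlrp4a, Nlrp4b, Nlrp9c, Nlrp9b, Nlrp2, Nlrp9a and Nlrp4e came next in order of mean, from 127 ± 53.7 FPKM for Nlrp4a to 51.2 ± 17.9 FPKM for Nlrp4e (SD, n = 2), and each of them overlapped its neighbour in that order. The whole list summed to 1454 and 1050 FPKM in Cnot6l-/- GV oocytes, 1624 and 1512 FPKM in the group labelled Btg4-/-, and 2125 and 1384 FPKM in wild type.

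**Figure D1:**
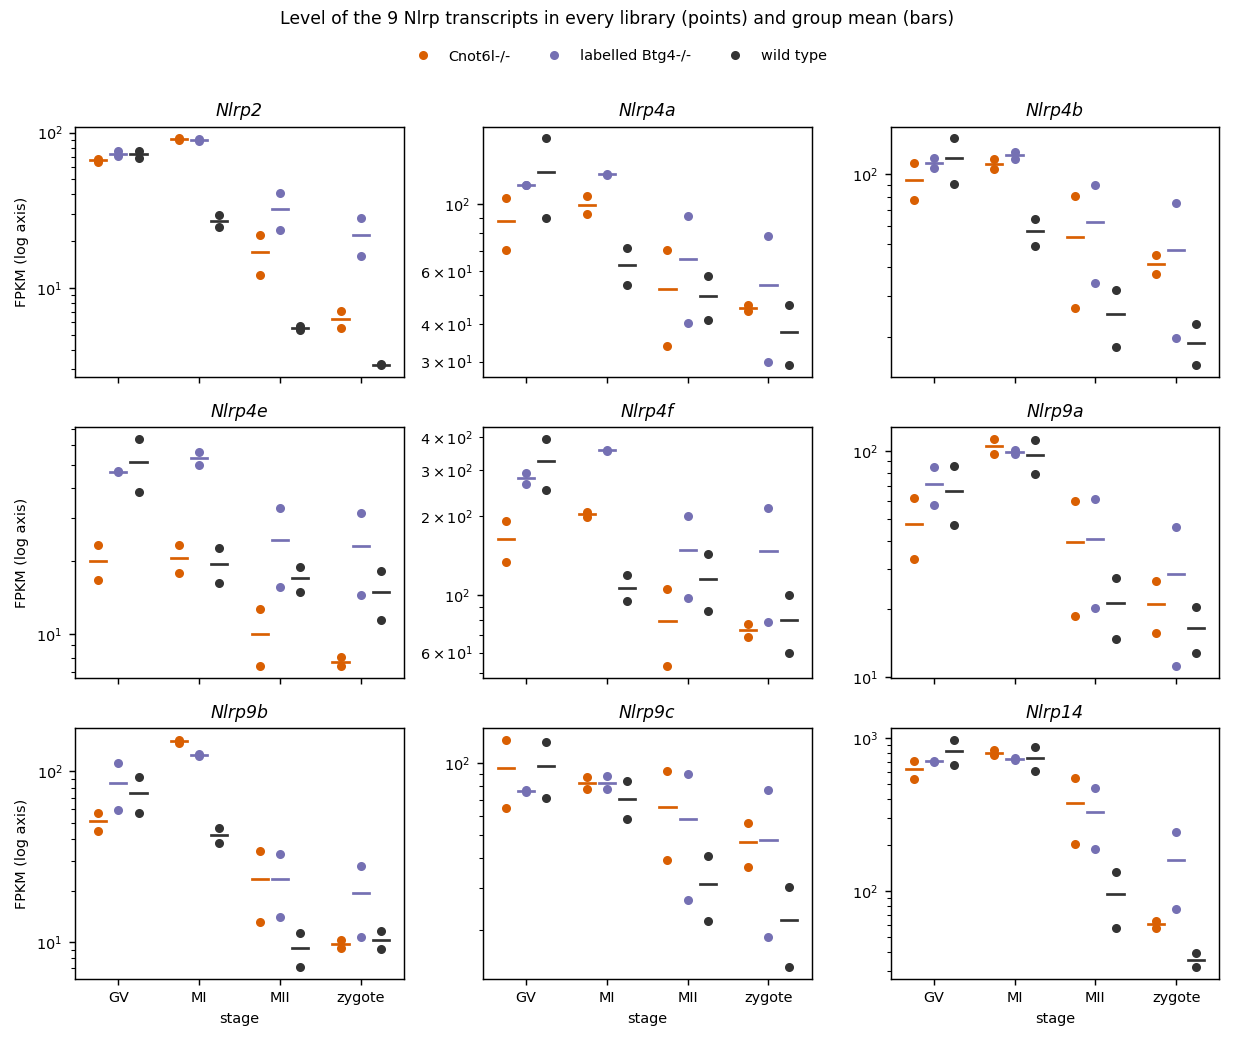
FPKM (log axis) of each Nlrp transcript in every library (points) and the mean of each group (bars), by stage, for Cnot6l-/-, the group labelled Btg4-/- and wild type. Nlrp2 is lower at each successive stage in wild type, with 3.18 and 3.24 FPKM in zygotes, while Nlrp14 overlaps between GV and MI and is lower in MII eggs.

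The 2 libraries of a group often differed in the same direction across the list. Among the 9 groups at GV, MII and zygote, the sum of the members was higher in the library numbered 1 in 9, and all 9 members were higher in it in 6, while the sum of all genes was higher in library 1 in 5. At MII, library 1 held 2.51 times the members' sum of library 2 in Cnot6l-/- eggs, 2.41 times in the group labelled Btg4-/- and 1.76 times in wild type. The sums of all genes had ratios of 1.10 in Cnot6l-/- eggs, 1.38 in the group labelled Btg4-/- and 0.92 in wild type. In zygotes labelled Btg4-/- the ratio was 2.98 for the members and 1.62 for all genes. The MI libraries, numbered 2 and 3 in the table, had ratios of 0.97 to 1.39 for the members. Several members share this difference at once, so they are not separate evidence at MII or in zygotes. A fit with library number as a block kept 43 of 43 calls and added others, as given in the last paragraph. The cause of the difference was not tested.

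**Figure D2:**
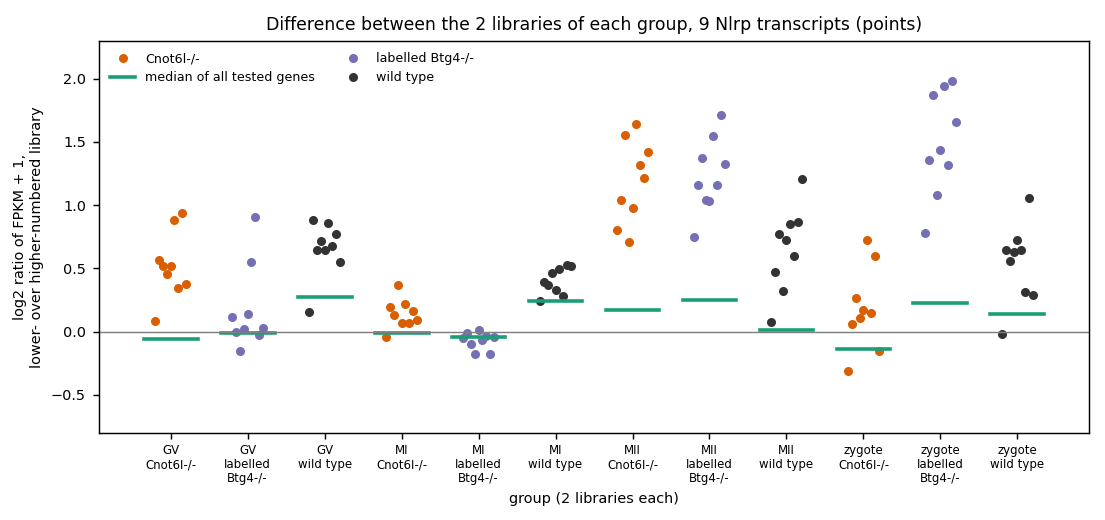
log2 ratio of FPKM + 1 between the 2 libraries of each group, lower number over higher, for the 9 members (points) and as the median of all 10884 tested genes (green bars). The members' median was 1.22 in Cnot6l-/- MII eggs against 0.17 for all genes, and 1.44 in zygotes labelled Btg4-/- against 0.23. The point of Nlrp2 in wild-type MII eggs, with 5.72 and 5.38 FPKM, lies near its bar.

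Differences below are on log2(FPKM + 1), which understates changes of low genes, from limma over all tested genes with Benjamini-Hochberg adjustment (two-sided, called at an adjusted p under 0.05). Nlrp2, which is linked to the subcortical complex of the egg and to imprinting of the embryo, fell at both meiotic steps. Nlrp2 had 76.3 and 68.5 FPKM in wild-type GV oocytes, 29.5 and 24.8 FPKM at MI, 5.72 and 5.38 FPKM at MII and 3.18 and 3.24 FPKM in zygotes. The libraries of successive stages did not overlap. From GV to MI, 3 of 9 members fell, Nlrp2 (-1.38 ± 0.31, SE, adjusted p = 0.00093), Nlrp4e (-1.32 ± 0.41, adjusted p = 0.0088) and Nlrp4f (-1.57 ± 0.47, adjusted p = 0.0076), where 65.1% of all tested genes fell. The members' median was -0.96 and that of all tested genes -0.95. Median-ratio scaling, which sets libraries level by 3677 genes that exceed 1 FPKM in every one, moves that all-gene median to -0.16. Under it no member fell at this step, and Nlrp9a (1.80, adjusted p = 0.009) and Nlrp14 (1.12, adjusted p = 0.03) were higher at MI, as were 15.1% of genes. Without GV library 1 or MI library 3, Nlrp4e and Nlrp4f were not called (largest adjusted p 0.11 and 0.085).

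Nlrp14 and Nlrp9a overlapped between GV and MI and fell between MI and MII. Nlrp14 had 876 and 611 FPKM in wild-type MI oocytes, 133 and 57.0 FPKM in MII eggs and 39.0 and 31.7 FPKM in zygotes. Nlrp9a had 112 and 79.3 FPKM at MI, above its 86.2 and 47.1 FPKM at GV in mean, then 27.6 and 14.8 FPKM at MII. From MI to MII, 4 of 9 members fell, where 32.6% of genes fell. They were Nlrp14 (-3.05 ± 0.55, adjusted p = 0.00043), Nlrp9a (-2.16 ± 0.64, adjusted p = 0.015), Nlrp9b (-2.12 ± 0.49, adjusted p = 0.003) and Nlrp2 (-2.10 ± 0.31, adjusted p = 7.6e-05). All 4 were also called lower after scaling, as were 25.0% of genes. Of all tested genes, 0.836% had a lower value than Nlrp14 at this step. The call of Nlrp9a was lost without MI library 2 or MII library 2 (adjusted p = 0.13 for each). Nlrp4e, by contrast, had 22.7 and 16.2 FPKM at MI and 19.0 and 15.0 FPKM at MII, overlapping values after its earlier fall. Nlrp4f likewise had 119 and 94.2 FPKM at MI and 143 and 86.5 FPKM at MII. Whether members differ in course was not tested.

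Over the whole of maturation, from GV to MII, all 9 members fell in wild type, with values from -3.48 ± 0.31 for Nlrp2 (adjusted p = 2.2e-08) to -1.30 ± 0.48 for Nlrp4a (adjusted p = 0.018). In all, 83.4% of tested genes fell, and the medians were -1.62 for the members and -1.37 for all genes. After scaling 3 of 9 were lower (Nlrp2, Nlrp9b and Nlrp14), as were 43.1% of genes, and Nlrp4a, Nlrp4e, Nlrp4f, Nlrp9a and Nlrp9c turned above 0. With GV library 1 or MII library 2 left out, 5 of 9 were called. At MII, wild-type eggs kept 38.8% of the GV mean of Nlrp4a, 35.5% of Nlrp4f, 33.2% of Nlrp4e, 11.5% of Nlrp14 and 7.67% of Nlrp2. The sum of all genes kept 19.9%. From MII to the zygote no member was called in wild type, where 1.04% of genes rose and 3.22% fell. At an unadjusted p under 0.05 only Nlrp14 was lower (adjusted p = 0.23), as were 1344 of the 10884 tested genes.

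**Figure D3:**
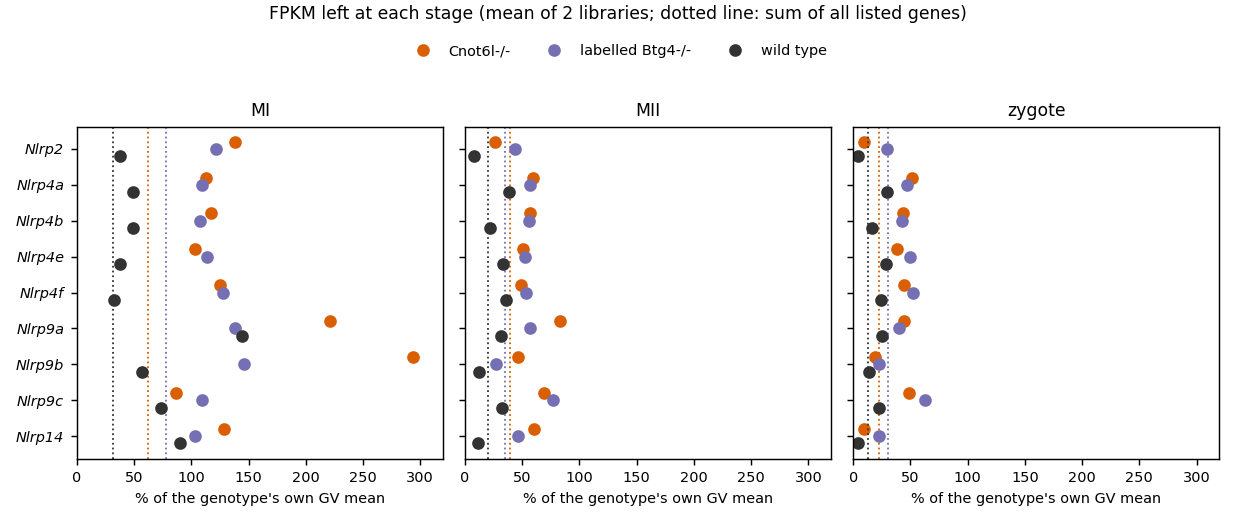
Mean FPKM of each member at MI, MII and in zygotes as a percentage of the same genotype's GV mean (points, 2 libraries each), with the sum of all listed genes as dotted lines. At MI wild type keeps 32.9 to 144% of the GV level, while Cnot6l-/- keeps 86.7 to 294% and the group labelled Btg4-/- 103 to 146%.

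In Cnot6l-/- oocytes, no member was called against wild type at GV, where 6.06% of genes were higher and 3.02% lower. Nlrp4e was nearest, with 23.3 and 16.7 FPKM in Cnot6l-/- GV oocytes and 63.8 and 38.5 FPKM in wild type. The groups did not overlap (-1.29 ± 0.41, adjusted p = 0.059). After scaling Nlrp4e was called lower (-1.18, adjusted p = 0.0052), as were 2.06% of genes. Nlrp4e was the one member with an unadjusted p under 0.05 as deposited. At that p, 721 of the 10884 tested genes were lower.

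At MI, Nlrp2 and Nlrp9b were higher in Cnot6l-/- oocytes, 2 of 9 members, where 60.3% of all tested genes were higher (35.8% after scaling). Nlrp2 had 89.5 and 92.4 FPKM in Cnot6l-/- MI oocytes and 29.5 and 24.8 FPKM in wild type (1.71 ± 0.31, adjusted p = 0.00014). Nlrp9b, also known from the intestinal epithelium as a sensor of rotavirus, had 154 and 147 FPKM in Cnot6l-/- MI oocytes and 46.7 and 38.2 FPKM in wild type (1.80 ± 0.49, adjusted p = 0.0041). For both, mutant libraries lay far above wild-type ones, and in Cnot6l-/- both had a higher mean at MI than at GV, where Nlrp9b had 57.2 and 44.7 FPKM. All 9 members had a positive difference at MI, with a median of 0.67 against 0.87 for all genes. After scaling Nlrp2 remained called (0.78, adjusted p = 0.0044) and Nlrp9b did not (0.87, adjusted p = 0.058). Nlrp4e was then lower (-0.81, adjusted p = 0.013), as were 11.0% of genes. Nlrp14 and Nlrp9a overlapped between the genotypes: Nlrp14 had 835 and 783 FPKM in Cnot6l-/- and 876 and 611 FPKM in wild type.

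At MII, Nlrp2 and Nlrp14 were higher in Cnot6l-/- eggs, 2 of 9 members, where 44.3% of genes were higher. Nlrp2 had 21.9 and 12.1 FPKM in Cnot6l-/- MII eggs and 5.72 and 5.38 FPKM in wild type (1.41 ± 0.31, adjusted p = 0.0014). Nlrp14 had 548 and 204 FPKM in Cnot6l-/- MII eggs and 133 and 57.0 FPKM in wild type (1.93 ± 0.55, adjusted p = 0.0089). Neither pair of groups overlapped, but the Cnot6l-/- libraries stood far apart from each other. The Nlrp14 call was lost without wild-type library 2 (1.33, adjusted p = 0.13), without Cnot6l-/- library 1 (1.22, adjusted p = 0.16) and in a fit of these groups alone (adjusted p = 0.07). Both calls held after scaling (0.68 for Nlrp2 and 1.11 for Nlrp14), where 34.3% of genes were higher. After scaling Nlrp4a (-0.82, adjusted p = 0.039), Nlrp4e (-1.54, adjusted p = 0.00011) and Nlrp4f (-1.39, adjusted p = 0.0018) were lower in Cnot6l-/-, 3 of 9 members, as were 8.65% of genes. As deposited their differences were 0.00, -0.74 and -0.56, with no call.

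In Cnot6l-/- zygotes no member was called against wild type, where 8.00% of genes were higher and 0.413% lower. Nlrp2 had 5.53 and 7.09 FPKM in Cnot6l-/- zygotes and 3.18 and 3.24 FPKM in wild type, the one member with an unadjusted p under 0.05. At that p, 1994 of the 10884 tested genes were higher. Within Cnot6l-/-, Nlrp2 and Nlrp14 fell between MII and the zygote, 2 of 9 members, where 28.7% of genes fell. Nlrp14 had 57.5 and 63.9 FPKM in Cnot6l-/- zygotes, against 548 and 204 FPKM in Cnot6l-/- MII eggs (-2.45 ± 0.55, adjusted p = 0.0029). Nlrp2 fell by 1.26 ± 0.31 (adjusted p = 0.0057). Of all genes, 2.50% had a lower value than Nlrp14 there, and both calls held after scaling, where 18.1% of genes fell. Without Cnot6l-/- MII library 1 the Nlrp14 change was -1.74 (adjusted p = 0.072) and that of Nlrp2 -0.85 (adjusted p = 0.12), and Nlrp2 was also not called without zygote library 1 (-1.10, adjusted p = 0.064).

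**Figure D4:**
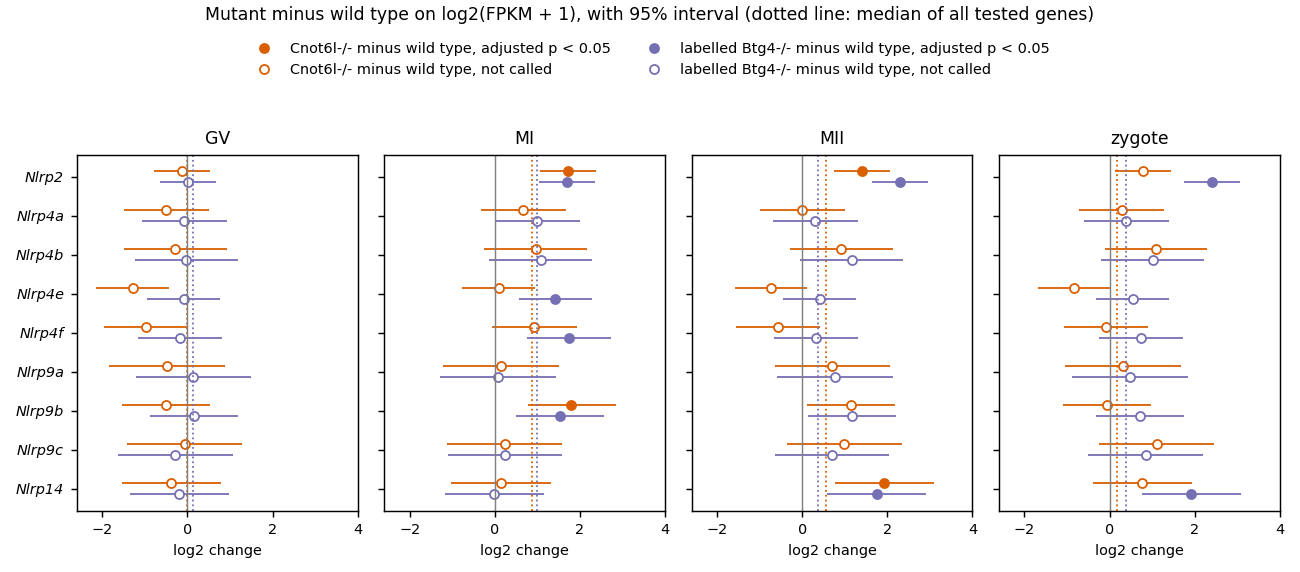
Difference of each member on log2(FPKM + 1), Cnot6l-/- or labelled Btg4-/- minus wild type, at the 4 stages, with 95% intervals of the fit; filled points have an adjusted p under 0.05 and dotted lines are medians of all tested genes. Nlrp2 labelled Btg4-/- lies to the right of the line at MII (2.29) and in zygotes (2.40).

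In the group labelled Btg4-/-, no member was called against wild type at GV, where 6.10% of genes were called higher and 1.33% lower. None had an unadjusted p under 0.05, while 2068 of the 10884 tested genes were higher and 422 lower at that p. At MI, Nlrp2, Nlrp4e, Nlrp4f and Nlrp9b were higher, 4 of 9 members, where 68.7% of all genes were higher. Nlrp4f had 359 and 356 FPKM in MI oocytes labelled Btg4-/- and 119 and 94.2 FPKM in wild type (1.75 ± 0.47, adjusted p = 0.0035). Nlrp2 had 88.1 and 91.1 FPKM there and 29.5 and 24.8 FPKM in wild type (1.69 ± 0.31, adjusted p = 0.00014). Neither pair overlapped. Nlrp9b was higher by 1.54 ± 0.49 (adjusted p = 0.011) and Nlrp4e by 1.42 ± 0.41 (adjusted p = 0.0053); without wild-type MI library 3 they were 1.39 (adjusted p = 0.069) and 1.19 (adjusted p = 0.058). The members' median was 1.08 and that of all genes 0.99. After scaling none of the 4 was called, where 32.4% of genes were higher. Nlrp14 was then lower, as were 9.76% of genes. It had 718 and 739 FPKM in the group labelled Btg4-/- and 876 and 611 FPKM in wild type.

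At MII, Nlrp2 and Nlrp14 were higher in eggs labelled Btg4-/-, 2 of 9 members, where 28.3% of genes were higher (21.8% after scaling). Nlrp2 had 40.6 and 23.8 FPKM in these eggs and 5.72 and 5.38 FPKM in wild type (2.29 ± 0.31, adjusted p = 3.6e-05). Of all tested genes, 95.5% had a lower difference, and Nlrp2 was also called after scaling (1.67, adjusted p = 1.6e-05) and with any library left out. Nlrp14 had 470.0 and 187 FPKM in these eggs and 133 and 57.0 FPKM in wild type (1.76 ± 0.55, adjusted p = 0.024). The groups did not overlap, but the call was lost after scaling (1.03, adjusted p = 0.061), without wild-type library 2 (1.15, adjusted p = 0.26) and without library 1 of the eggs labelled Btg4-/- (1.09, adjusted p = 0.32).

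The difference in Nlrp2 was still present in zygotes. Nlrp2 had 28.1 and 16.0 FPKM in zygotes labelled Btg4-/- and 3.18 and 3.24 FPKM in wild type (2.40 ± 0.31, adjusted p = 3.9e-05). Nlrp14 had 242 and 76.2 FPKM in zygotes labelled Btg4-/- and 39.0 and 31.7 FPKM in wild type (1.92 ± 0.55, adjusted p = 0.019). These were the 2 of 9 members called higher, where 21.5% of genes were higher (11.7% after scaling), and neither overlapped wild type. Nlrp2 was called after scaling (1.71, adjusted p = 3e-05) and with any library left out, though not in a fit of these groups alone (adjusted p = 0.11). Nlrp14 was not called after scaling (1.04, adjusted p = 0.092), nor without zygote library 1 labelled Btg4-/- (1.09, adjusted p = 0.33) or wild-type library 2 (1.78, adjusted p = 0.12). From MII to the zygote no member was called within the group labelled Btg4-/-, where 0.248% of genes were called higher and 1.07% lower. None had an unadjusted p under 0.05, while 288 of the 10884 tested genes rose and 1005 fell at that p.

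Nlrp4a, Nlrp4b, Nlrp9a and Nlrp9c were not called in either mutant against wild type at any stage as deposited. Nlrp4a had 106 and 92.8 FPKM in Cnot6l-/- MI oocytes, 125 and 126 FPKM in those labelled Btg4-/- and 71.3 and 54.0 FPKM in wild type (adjusted p = 0.24 for Cnot6l-/- and 0.071 for labelled Btg4-/-). Nlrp4b had 115 and 105 FPKM in Cnot6l-/- MI oocytes, 116 and 124 FPKM in those labelled Btg4-/- and 64.1 and 49.4 FPKM in wild type (adjusted p = 0.16 and 0.1). Both mutants lay above wild type for these transcripts with no overlap. Nlrp9c had 87.0 and 77.4 FPKM in Cnot6l-/- MI oocytes, 77.5 and 87.9 FPKM in those labelled Btg4-/- and 83.9 and 58.0 FPKM in wild type, so that all groups overlapped. At MII Nlrp4b had 80.6 and 26.8 FPKM in Cnot6l-/- eggs, 90.0 and 34.1 FPKM in those labelled Btg4-/- and 31.9 and 18.3 FPKM in wild type (adjusted p = 0.21 and 0.15). The Cnot6l-/- eggs overlapped wild type here, and those labelled Btg4-/- did not. The libraries of a mutant differed by more than the lower of them differed from wild type.

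The change between GV and MII was also tested within each mutant. In Cnot6l-/-, Nlrp2 (-1.95 ± 0.31, adjusted p = 4.8e-05) and Nlrp9b (-1.22 ± 0.49, adjusted p = 0.04) fell, 2 of 9, where 59.9% of genes fell. In the group labelled Btg4-/-, Nlrp9b (-1.87 ± 0.49, adjusted p = 0.0027), Nlrp14 (-1.25 ± 0.55, adjusted p = 0.049), Nlrp2 (-1.21 ± 0.31, adjusted p = 0.0024) and Nlrp4e (adjusted p = 0.035) fell, 4 of 9, where 75.3% of genes fell. After scaling Nlrp2 alone was called in Cnot6l-/-, where 23.4% of genes fell. No member was called in the group labelled Btg4-/-, where 29.7% fell. As deposited, the Nlrp14 call labelled Btg4-/- was lost in 17 of 24 fits with a library left out. The Nlrp9b call in Cnot6l-/- was lost in 5 of 24. The count of members called labelled Btg4-/- fell without MII library 2 of that group and rose without its library 1. In Cnot6l-/- the count rose without MII library 1 and fell without MII library 2 or either GV library. It changed in at least 10 of 24 fits with a library left out. Shares of all genes called in those fits were not worked out, so these changes cannot be set against all genes.

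The difference between mutant and wild type in the change from GV to MII was tested directly. Both tests share the wild-type libraries. The members ran from 0.41 to 2.31 in Cnot6l-/-, where the median of all genes was 0.56, and from 0.39 to 2.27 in the group labelled Btg4-/-, where it was 0.28. All 9 were thus above 0 as deposited, but after scaling Nlrp4a, Nlrp4e and Nlrp4f were below 0 in both, as was Nlrp9a in the group labelled Btg4-/-. In Cnot6l-/-, 2 of 9 passed, Nlrp14 (2.31 ± 0.78, adjusted p = 0.039) and Nlrp2 (1.53 ± 0.44, adjusted p = 0.017). Of all genes, 24.1% passed in that direction (15.0% after scaling). In the group labelled Btg4-/-, Nlrp2 passed (2.27 ± 0.44, adjusted p = 0.0023), 1 of 9, where 13.3% of genes passed (12.3% after scaling). MII eggs kept 25.8% of the GV mean of Nlrp2 in Cnot6l-/-, 43.9% in the group labelled Btg4-/- and 7.67% in wild type. For the sum of all genes these shares were 39.4% in Cnot6l-/-, 34.7% in the group labelled Btg4-/- and 19.9% in wild type. The Nlrp2 result of the group labelled Btg4-/- held after scaling (1.69, adjusted p = 0.00087). Those of Cnot6l-/- did not (adjusted p = 0.099 for Nlrp2 and 0.1 for Nlrp14). With a library left out, the Cnot6l-/- results were lost in 3 of 24 fits for Nlrp2 and 9 of 24 for Nlrp14. Without Cnot6l-/- MII library 1 they were 1.13 for Nlrp2 (adjusted p = 0.1) and 1.60 for Nlrp14 (adjusted p = 0.21), and they were also lost without wild-type GV library 1 or MII library 2 (adjusted p = 0.059 and 0.052 for Nlrp2, and 0.14 and 0.18 for Nlrp14).

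Between the mutants, which share no libraries, Nlrp4e and Nlrp2 differed. Nlrp4e had 23.3 and 16.7 FPKM in Cnot6l-/- GV oocytes and 47.0 and 46.4 FPKM in those labelled Btg4-/- (-1.20 ± 0.41, adjusted p = 0.049). At MI it had 23.4 and 17.9 FPKM in Cnot6l-/- and 49.9 and 56.4 FPKM in the group labelled Btg4-/- (-1.33 ± 0.41, adjusted p = 0.046). In zygotes it had 8.06 and 7.39 FPKM in Cnot6l-/- and 31.7 and 14.5 FPKM in those labelled Btg4-/- (-1.37 ± 0.41, adjusted p = 0.031). Cnot6l-/- was thus below at each of these stages with no overlap. At MII, with 12.7 and 7.41 FPKM in Cnot6l-/- and 33.2 and 15.7 FPKM in eggs labelled Btg4-/-, the groups did not overlap either, but no call was made (-1.15 ± 0.41, adjusted p = 0.076). It was the 1 member of 9 called lower at GV, where 12.4% of genes were lower, and at MI, where 6.46% were. At MII no member was called, and 11.0% of genes were called higher and 1.77% lower. At an unadjusted p under 0.05, 2 members were lower, as were 498 of the 10884 tested genes. In zygotes Nlrp2 was also lower in Cnot6l-/- (-1.61 ± 0.31, adjusted p = 0.002), making 2 of 9, where 12.8% of genes were lower. The calls of Nlrp4e lie close to the threshold. They were lost in 14 of 24 fits with a library left out at GV (adjusted p up to 0.22), 14 of 24 at MI (up to 0.3) and 3 of 24 in zygotes (up to 0.35), while after scaling Nlrp4e was called lower at all 4 stages. The Nlrp2 call held with any library left out, but not in a fit of these groups alone (adjusted p = 0.092). Of all genes, 3.95% were lower in Cnot6l-/- at GV after scaling, 2.85% at MI, 4.25% at MII and 16.9% in zygotes. Nlrp4e shares more sequence with another gene, Nlrp4c, than any other member does.

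Over the 12 group means on log2(FPKM + 1), pairs of members had a Pearson r of 0.51 (Nlrp4e with Nlrp9c) to 0.97 (Nlrp2 with Nlrp4b). The median was 0.86 over 36 pairs. All share the fall in summed FPKM. After scaling r ran from -0.66 (Nlrp2 with Nlrp4a) to 0.93 (Nlrp4e with Nlrp4f) with a median of 0.11, and 16 of the 36 pairs were below 0. Only the 5337 more abundant genes were ranked. The 5 other genes closest to the members' mean profile were Taf3 (r = 0.992), Rpa1 (0.987), Zc3h14 (0.986), Ammecr1l (0.985) and Lpin2 (0.985). After scaling 0 of these 5 remained among the nearest. The closest gene to each member was Wdr36 for Nlrp2, Taf3 for Nlrp4a, Gclm for Nlrp4b, Rbm44 for Nlrp4e, Gar1 for Nlrp4f, Mtmr14 for Nlrp9a, Chmp1a for Nlrp9b, Pecr for Nlrp9c and 2410004A20Rik for Nlrp14, with r of 0.966 to 0.993 over 12 groups. After scaling the closest gene was a different one for every member, with r of 0.887 to 0.970.

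Related genes give the setting. Of 20 other NLR family genes 19 were listed and 4 were tested, and 15 of the 19 never reached 1 FPKM. The highest were Naip1, a sensor of bacterial proteins, at up to 16.0 FPKM and Nlrp4c at up to 9.47 FPKM. From GV to MII in wild type, 4 of 4 fell, where 83.4% of genes fell. After scaling 1 of 3 tested was lower, against 43.1% of genes, with a median of 0.16. Naip1 had 0.35 and 0.26 FPKM in wild-type MII eggs and 16.0 and 9.97 FPKM in GV oocytes. Naip1 was higher at MII in Cnot6l-/- eggs (6.61 and 4.09 FPKM, 2.25 ± 0.34, adjusted p = 4.8e-05) and in eggs labelled Btg4-/- (6.83 and 2.67 FPKM, 2.04 ± 0.34, adjusted p = 0.00025) than in wild type. Of 8 inflammasome partners 3 were tested, and 4 never reached 1 FPKM. Txnip, a binder of thioredoxin, reached 262 FPKM and Nek7, a kinase that activates NLRP3, 5.00 FPKM.

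The subcortical maternal complex, a protein assembly under the egg surface, holds the related NLRP5. Of its 6 genes listed here 5 were tested, and 4 of 5 fell from GV to MII in wild type, where 83.4% of genes fell, with a median of -2.47 against -1.37 for all genes. After scaling 2 were lower and 1 higher, against 43.1% and 14.8% of genes, with a median of -0.54. Zbed3, the highest at up to 1993 FPKM, was the exception, with 867 and 1301 FPKM in wild-type MII eggs and 969 and 1289 FPKM in GV oocytes. Ooep had 49.8 and 42.3 FPKM in wild-type MII eggs and 1782 and 1927 FPKM in GV oocytes (-5.30 ± 0.47, adjusted p = 1.8e-08). At MII, 4 of 5 were higher in Cnot6l-/- eggs than in wild type, where 44.3% of genes were, and 3 of 5 in eggs labelled Btg4-/-, where 28.3% were. After scaling 3 were higher and 1 lower in Cnot6l-/-, where 34.3% of genes were higher and 8.65% lower. In the group labelled Btg4-/- 1 was higher, as were 21.8% of genes. Of the 6 oocyte transcription factors 5 were tested. NOBOX and FIGLA drive oocyte genes, and their transcripts Nobox and Figla fell from GV to MII in wild type (-4.48 ± 0.26, adjusted p = 1e-10, for Nobox and -5.32 ± 0.29, adjusted p = 7e-11, for Figla). At MII 4 of 5 of these factors were higher in Cnot6l-/- eggs, against 44.3% of genes, and 3 of 5 in eggs labelled Btg4-/-, against 28.3%. The same numbers were called after scaling, against 34.3% and 21.8% of genes.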

How the data were processed

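RNA of pooled mouse oocytes and zygotes was sequenced from Smart-Seq2 libraries cut with Tn5. Per the submitters' processing notes the authors used CASAVA 1.8, TopHat2 2.0.11, Bowtie2 2.1.0 and Cufflinks 2.2.1 with mm9. The deposited values are FPKM with 2 decimals. The sources used here do not say how libraries were scaled to each other. Read depth is unknown, so precision rests on 2 libraries per group. The MI columns are numbered 2 and 3 and their titles 1 and 2, so they were assigned to groups only. Single-library tables were left out.

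Testing kept the 10884 of 23235 genes whose mean reached 1 FPKM in any group. limma 3.58.1 (R 4.3.3) fitted 12 group means to log2(FPKM + 1) of all 24 libraries, with a trend and 22 contrasts and Benjamini-Hochberg adjustment over all tested genes. The fit was tested on simulated data. Each library was left out in turn, and the fit was repeated after median-ratio scaling, without the filter, with 0.1 as pseudocount, with library numbers as a block and on the compared groups alone. Python 3.11.15 and Biopython handled sequences; coding identity is over aligned bases of a global alignment. The text names all 9 members, the nearest genes and the 2 highest genes of related lists; Nobox and Figla were added for their motifs, after their values were seen. Members, lists and motifs were chosen with earlier results of these data known.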

Additional observations from a re-analysis of the deposited data

Results flagged for a closer look

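2 transcripts changed differently between GV and MII in a mutant than in wild type, by a test of that difference in limma with Benjamini-Hochberg adjustment. For Nlrp2 the change was higher by 2.27 ± 0.44 in the group labelled Btg4-/- than in wild type (log2, SE, adjusted p = 0.0023) and by 1.53 ± 0.44 in Cnot6l-/- than in wild type (adjusted p = 0.017). For Nlrp14 it was higher by 2.31 ± 0.78 in Cnot6l-/- than in wild type (adjusted p = 0.039). The Cnot6l-/- values did not pass after median-ratio scaling. With a library left out, they were lost in 3 of 24 fits for Nlrp2 and 9 of 24 for Nlrp14. The cause of the differences was not tested.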

How the results depend on the processing

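Of 43 calls of members, 41 held with a pseudocount of 0.1, 32 with no filter, 31 in fits of only the groups compared, 20 after median-ratio scaling, and 19 whichever single library was left out. The cause of each loss was not tested. Counts are members of 9 called, and shares of all genes after scaling that are not given here stand with the results above. After scaling, wild type MI minus GV had 2 higher and 0 lower, where 15.1% of genes were higher and 30.5% lower. Wild type MII minus GV had 3 lower, where 43.1% of genes were. MII minus GV had 1 lower in Cnot6l-/- and 0 labelled Btg4-/-. Cnot6l-/- minus wild type had 1 lower at GV, 1 higher and 1 lower at MI, 3 lower at MII and 1 lower in zygotes. In those zygotes 7.89% of genes were lower. Labelled Btg4-/- minus wild type had 0 higher and 1 lower at MI, 1 higher at MII and 1 higher in zygotes. Cnot6l-/- minus labelled Btg4-/- at MII had 3 lower, and the MII minus GV difference of Cnot6l-/- from wild type 0.

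Of 198 values (9 members in 22 contrasts), 74 changed sign after scaling. The turns listed here are only those among the called values and a few others chosen by hand. Signs turned for Nlrp14 in wild type MI minus GV (1.12). In wild type MII minus GV they turned for Nlrp4a (0.61), Nlrp4e (0.37), Nlrp4f (0.43), Nlrp9a (0.28) and Nlrp9c (0.28). They also turned in MII minus GV labelled Btg4-/- for Nlrp2 (0.01) and Nlrp4e (0.20), and in Cnot6l-/- minus wild type for Nlrp4e at MI (-0.81) and Nlrp4a at MII (-0.82).

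With no filter, MII minus GV had 1 lower in Cnot6l-/- and 2 labelled Btg4-/-, labelled Btg4-/- minus wild type had 1 higher at MII and 1 in zygotes, Cnot6l-/- minus labelled Btg4-/- had 0 lower at GV, 0 at MI and 1 in zygotes, and the Cnot6l-/- difference in MII minus GV had 1. In the groups alone these counts were 1 and 2 for MII minus GV, 1 and 0 for labelled Btg4-/- minus wild type, 0, 3 and 0 for Cnot6l-/- minus labelled Btg4-/- (with 1 higher at MI) and 1 for the difference. Cnot6l-/- zygote minus MII had 1 lower there, and Cnot6l-/- minus wild type 5 higher at MI and 1 at MII. A pseudocount of 0.1 left 0 lower for Cnot6l-/- minus labelled Btg4-/- at GV and 0 at MI. Shares of all genes called were not worked out for these settings, so the counts cannot be set against all genes.

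With one library left out (the lone library of that group then being assumed to vary like the others), counts ranged from 1 to 4 lower for wild type MI minus GV and 5 to 9 for MII minus GV. MII minus GV ranged from 1 to 6 in Cnot6l-/- and 0 to 8 labelled Btg4-/-, and Cnot6l-/- zygote minus MII from 0 to 3. Cnot6l-/- minus wild type ranged from 0 to 1 lower at GV and 1 to 4 higher at MII. Labelled Btg4-/- minus wild type ranged from 2 to 5 at MI, 1 to 4 at MII and 1 to 4 in zygotes. Cnot6l-/- minus labelled Btg4-/- ranged from 0 to 1 at GV, 0 to 1 at MI, 0 to 2 at MII and 1 to 4 in zygotes. The MII minus GV differences ranged from 0 to 3 for Cnot6l-/- and 1 to 2 for labelled Btg4-/-. Nlrp14 ranged from -0.42 to 0.13 in wild type MI minus GV, and in Cnot6l-/- minus wild type Nlrp4e ranged from -0.14 to 0.32 at MI and Nlrp4a from -0.52 to 0.53 at MII. Shares of all genes called were not worked out for fits with a library left out, so their counts cannot be set against all genes.

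Library numbers are not tied to a shared animal or day in the labels. The differences between numbers correlated between groups at -0.31 to 0.71 over 36 pairs at GV, MII and zygote (median 0.44, with 28 over 0.1) and at -0.09 to 0.01 over 3 pairs at MI. Because no label ties a number to an animal or day, the main fit did not take the numbers as a pairing, although most groups shared a direction. That fit thus leaves the shared difference in its error, and a member not called there can be called with the block. With the replicate block, 43 of 43 calls held. Shares of all genes called with the block were not worked out, so the counts below cannot be set against all genes. Wild type MI minus GV had 6 lower, MII minus GV 6 in Cnot6l-/- and 8 labelled Btg4-/-. Cnot6l-/- minus wild type had 2 lower at GV, 4 higher at MI, and 4 higher and 1 lower at MII. Labelled Btg4-/- minus wild type had 4 higher at MII, Cnot6l-/- minus labelled Btg4-/- 2 lower at MII, and the labelled Btg4-/- difference in MII minus GV 2. Depth is unknown, and 2 libraries per group limit the precision.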
